A study of Homo sapiens with 9 samples.

Results

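Iron uptake, storage and export were followed through 10 genes, out of 58735 gene identifiers counted, in the clear cell renal cell carcinoma line 786-0. They are TFRC and SLC11A2 for uptake, FTH1 and FTL for storage, SLC40A1 and CP for export, HMOX1 for heme breakdown, ACO1 and IREB2 for the iron regulatory proteins, and ERFE, which encodes a hormone. The genes were selected on their place in iron handling, with the differences in their counts between the groups of these same libraries already known. Their changes are therefore given as a description, and the number of them called differentially expressed is not evidence about iron genes as a class.

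The 786-0 line is VHL defective and carries an inactivating HIF1α mutation, and it therefore expresses HIF2α constitutively. This background was shared by all 9 libraries, which came from cells held at 21% O2 for 48 h. The control group was untreated wild type cells, the PT2385 group was wild type cells given 10 μM PT2385 for 48 h, and the KO group was a HIF2α knockout of the line, with 3 libraries in each. PT2385 binds HIF2α and blocks its pairing with HIF1β, whereas a knockout is meant to remove the gene product. The level of HIF2α protein in the KO cells was not given in the sources used here. How the KO was made, and whether it is 1 clone, was not given in the sources used here. The labels do not say that replicates were separate cultures, so p-values measure the spread between these libraries, which may be technical.

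Cells take up transferrin-bound iron through the transferrin receptor (TFRC), release it from endosomes through DMT1 (SLC11A2), store it inside ferritin shells of heavy and light chains (FTH1, FTL) and export it through ferroportin (SLC40A1), beside which the copper ferroxidase ceruloplasmin (CP) oxidises the released iron. The iron regulatory proteins IRP1 (ACO1) and IRP2 (IREB2) bind hairpins called iron responsive elements (IREs) in several of these mRNAs when cellular iron is low. An IRE in the 5′ untranslated region then blocks translation, whereas IREs in the 3′ untranslated region of TFRC protect that mRNA from decay. HIF2α is known for its place in iron handling, since genes of iron absorption and of ceruloplasmin are among HIF targets and the EPAS1 mRNA that encodes HIF2α itself carries an IRE.

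The IREs are shown because their place differs between members. Fully paired sites lie in the 3′ untranslated region of TFRC and in the 5′ untranslated region of FTH1, FTL and SLC40A1. The canonical transcripts of the members were searched for a C followed by any 5 bases and by CAGTGN, and the sites in untranslated regions in which all 5 bases on each side of the loop can pair are printed from hg38, 5′ to 3′ on the sense strand. Capitals mark the bulged C and the 6-base loop. All 4 TFRC sites lie in exon 19, and each of the other sites lies in exon 1. In order, they are at chr11:61967574-61967602 (minus strand), chr19:48965335-48965363 (plus), chr2:189580661-189580689 (minus), and, for TFRC on the minus strand, chr3:196050979-196051007, chr3:196050575-196050603, chr3:196050510-196050538 and chr3:196050463-196050491.
FTH1 5′ UTR: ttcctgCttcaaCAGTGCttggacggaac
FTL 5′ UTR: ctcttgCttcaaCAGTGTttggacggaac
SLC40A1 5′ UTR: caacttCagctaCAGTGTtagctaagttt
TFRC 3′ UTR site 1: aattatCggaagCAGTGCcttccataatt
TFRC 3′ UTR site 2: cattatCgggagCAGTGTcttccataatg
TFRC 3′ UTR site 3: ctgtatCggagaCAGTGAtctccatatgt
TFRC 3′ UTR site 4: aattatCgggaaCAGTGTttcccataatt

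Such a site was found in 0.102% of 19647 annotated 5′ UTRs and in 0.623% of 19571 3′ UTRs, whereas the letters alone, without the pairing, occurred in 6.29% and 34.2%. Sites with 4 of the 5 pairs were found in the 3′ UTRs of SLC11A2 (chr12:50988269-50988297, minus strand), ACO1 (chr9:32452986-32453014, plus) and IREB2 (chr15:78500969-78500997, plus), and the share of all transcripts with such a site was not computed.
No site with all 5 pairs was found in SLC11A2, CP, HMOX1, ACO1, IREB2 or ERFE. The rule can miss an IRE, so this does not show that these genes, SLC11A2 among them, lack one. The 5′ UTR site found in EPAS1, whose mRNA carries an IRE as given above, has 3 of the 5 pairs. A match describes letters only, and IRP binding was not measured.

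Total counts per library ran from 11881000 to 14730081. EPAS1 had 2788 to 3226 counts in control and 262 to 360 in KO, a log2 fold change of -3.52 ± 0.10 (SE; edgeR adjusted p = 2.1e-09), and in the PT2385 group it had 3075 to 3317 counts (log2 fold change -0.11 ± 0.07, edgeR adjusted p = 0.46). All 7 renal epithelial markers checked were above 3 counts in every library. The 4 hepatocyte and 4 endothelial markers stayed at 3 counts or fewer in every library. The summed level of 4 fibroblast markers was 6.99 to 8.89 CPM in control, 8.45 to 10.6 in PT2385 and 2.70 to 4.46 in KO, and DCN was at 0 in every library. The part of this difference in the results for the KO was not tested. In bulk RNA fewer cells that express a gene and less RNA per cell cannot be told apart.

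Levels are given as CPM, the read count scaled to the size of the library after TMM correction. Each pair of groups was fitted across all genes with edgeR, and a gene was called at an adjusted p under 0.05. Per kilobase of transcript, the ferritin chains were the most abundant members in control cells, with 453 ± 47 (SD, n = 3) CPM per kb for FTH1 and 398 ± 35 for FTL. TFRC followed with 164 ± 8. Next came CP with 23.2 ± 2.8, IREB2 with 16.7 ± 0.6, SLC11A2 with 13.7 ± 0.6, ACO1 with 8.59 ± 1.12, HMOX1 with 6.28 ± 1.54 and ERFE with 1.76 ± 0.57. FTH1 and FTL, and likewise ACO1 and HMOX1, differed by less than the sum of their SDs.

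**Figure D1:**
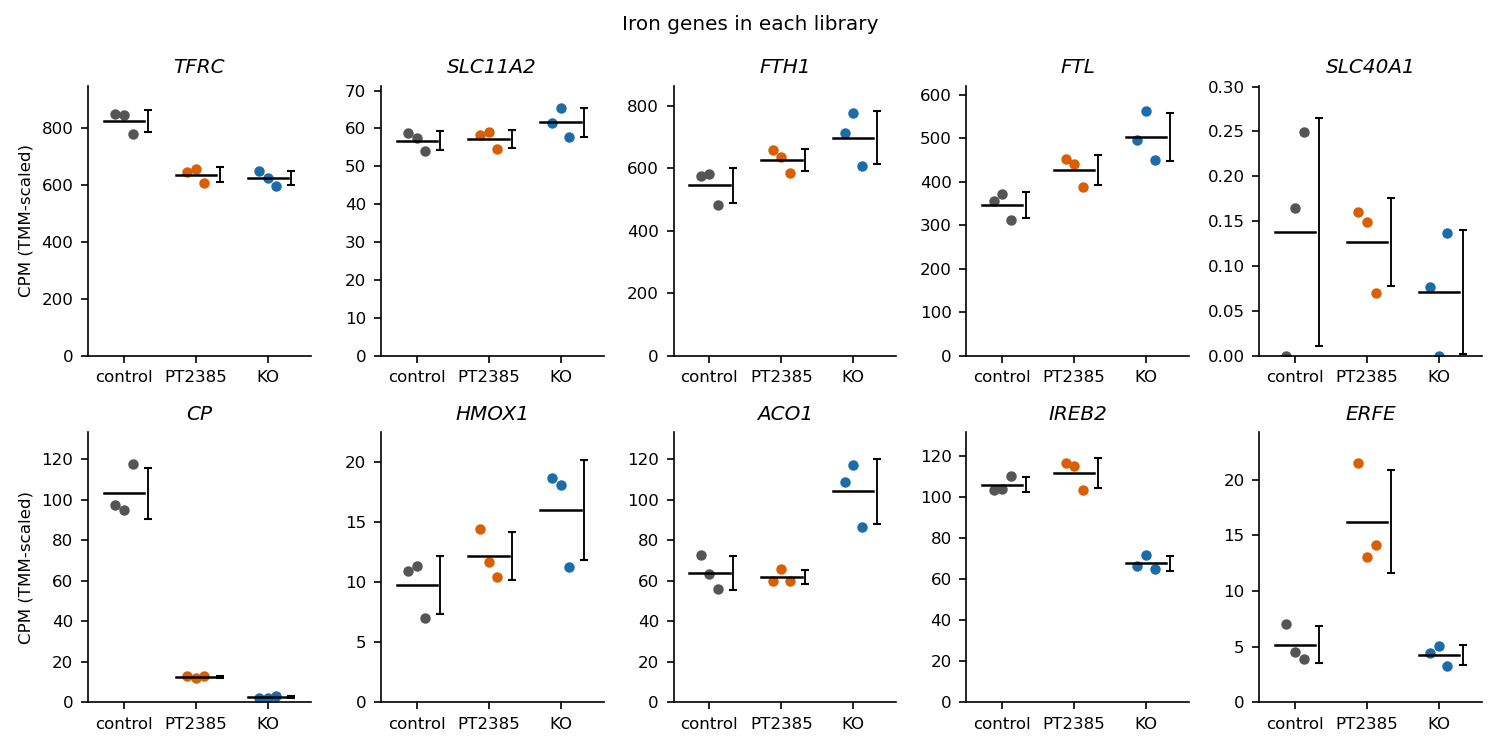
CPM of each member (vertical axis, TMM-scaled, starting at 0) in the 3 control, 3 PT2385 and 3 KO libraries. Points are libraries in the order of their numbers, the line is the mean and the bar beside it is ± SD. CP fell from 103 CPM to 12.7 and 2.66, TFRC was lower in both groups, ERFE was high only in the PT2385 libraries, and ACO1 and IREB2 moved apart in the KO.

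Upon PT2385 treatment, 4 of the 9 members that passed the filter on low counts were called, where 7.70% of all 15089 genes tested were. TFRC and CP were down-regulated (4.62% of all genes were), and FTL and ERFE were up-regulated (3.08% of all genes). In the KO 7 of 9 were called, where 30.1% of 15192 genes were. TFRC, CP and IREB2 were lower, as were 15.4% of all genes, and FTH1, FTL, HMOX1 and ACO1 were higher, as were 14.7%. When KO was compared directly with PT2385, 4 of 9 were called, where 18.8% of 15402 genes were. CP, IREB2 and ERFE were lower (10.3% of all genes) and ACO1 was higher (8.47%) in the KO. The CPM did not overlap between the groups for 5 of the 9 members with PT2385, for 6 in KO and for 4 in KO against PT2385, and for 25.9%, 44.0% and 35.1% of all genes tested. The median log2 fold change of the 9 members was 0.07, 0.13 and 0.10 in the 3 comparisons, against 0.00 over all genes tested in each. SLC40A1 was the member not tested. Both comparisons with control use the same 3 control libraries, and only the direct comparison of KO with PT2385 tests the difference between them.

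**Figure D2:**
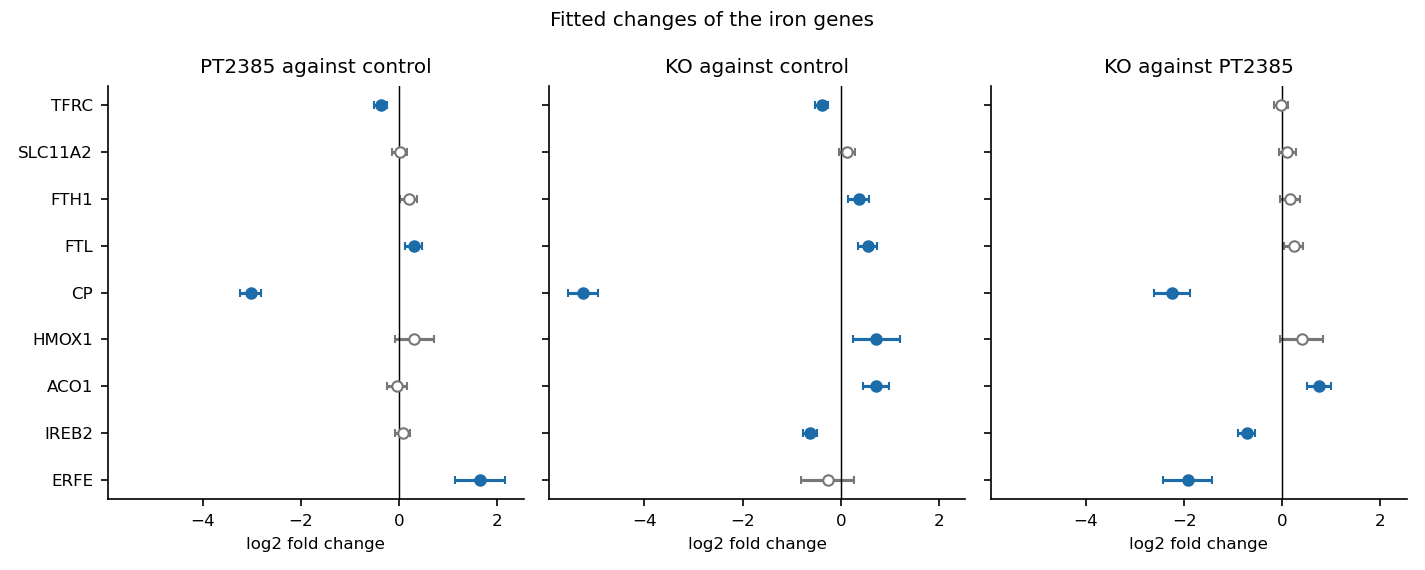
Fitted log2 fold changes (horizontal axis) of the 9 tested members in the 3 comparisons, with 95% confidence intervals as bars. Filled points were called at an adjusted p under 0.05. CP lay far to the left in all 3 panels, and ERFE was to the right of 0 with PT2385 and to the left in KO against PT2385.

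CP showed the largest change of the members. It encodes ceruloplasmin, the multicopper oxidase that loads iron onto transferrin, which the liver secretes and other tissues make as well. The control libraries had 97.4, 94.9 and 117.6 CPM of CP, from 1160, 1153 and 1413 counts. The PT2385 libraries had 12.9, 12.1 and 13.1 CPM, and the KO libraries had 2.39, 2.37 and 3.22 CPM, the latter from 31, 34 and 47 counts. The groups stood in 3 separate steps with no overlap between any of them. CP was 8.16-fold lower with PT2385 (log2 fold change -3.03 ± 0.10, edgeR adjusted p = 1.9e-09) and 38.2-fold lower in KO (log2 fold change -5.26 ± 0.14, edgeR adjusted p = 2.0e-09). Between KO and PT2385 the level differed by a further 4.75-fold (log2 fold change -2.25 ± 0.17, edgeR adjusted p = 8.0e-06). By size of decrease CP ranked 17 of 15089 genes with PT2385 and 24 of 15192 in KO.

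CP lies on the minus strand at chr3:149162410-149221829 (hg38), and the protein-coding gene HPS3, on the opposite strand, shares 1420 exonic bases with it. Without strand in the counting, reads from that stretch could not be assigned to either gene. HPS3 had 125 ± 6 CPM in control, 102 ± 3 in PT2385 and 109 ± 7 in KO (SD, n = 3). It was called lower with PT2385 (log2 fold change -0.30 ± 0.06, edgeR adjusted p = 0.013), although not without control replicate 1 (adjusted p = 0.067) or PT2385 replicate 2 (adjusted p = 0.077), and was not called in KO (log2 fold change -0.18 ± 0.07, edgeR adjusted p = 0.063). The KO libraries of HPS3 were nonetheless all below the control libraries, and it was called there with the replicate block (adjusted p = 0.043), with all 9 libraries in 1 edgeR model (0.038) and without KO replicate 2 (0.033). For each count of HPS3 there were 0.741 to 0.946 counts of CP in control libraries, 0.121 to 0.131 in PT2385 libraries and 0.0203 to 0.0313 in KO libraries. The step in CP was thus many times larger than any movement of its neighbour.

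**Figure D3:**
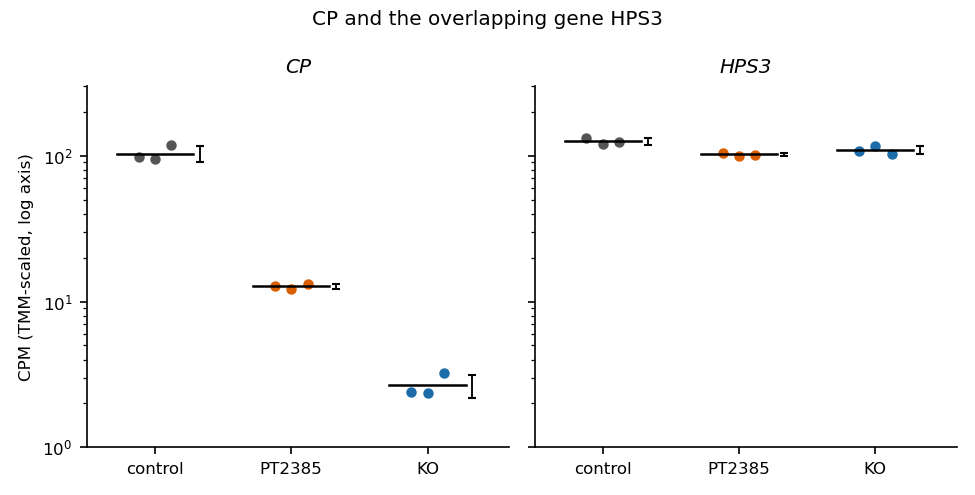
CPM of CP and of HPS3, the gene that overlaps it, on a shared log axis. Points are libraries, lines are means and bars are ± SD. CP took 3 separate levels, with means of 103, 12.7 and 2.66 CPM, while HPS3 stayed between 100.1 and 131 CPM.

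The genes whose pattern over the 9 libraries lay closest to that of CP were EGLN3, PTGES and PRIMA1, with root mean square differences of centred log2 CPM of 0.223, 0.320 and 0.404. An offset of 0.5 was added to CPM before the log, which shrinks differences near the floor of detection. EGLN3 encodes a HIF prolyl hydroxylase and PTGES a prostaglandin E synthase. In KO, PTGES and PRIMA1 were at the floor, with means of 0.14 and 0.046 CPM, where 3 counts make 0.253 CPM in the smallest library. EGLN3 fell from 130.4 ± 9.5 CPM in control to 14.7 ± 1.9 in PT2385 and 2.41 ± 0.50 in KO (SD, n = 3). These genes were found by their likeness to CP, and the likeness is a description.

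SLC40A1, the only known cellular iron exporter in mammals, was close to absent. Its counts were 0, 2 and 3 in control, 2, 2 and 1 in PT2385 and 1, 0 and 2 in KO. With all libraries at or under 3 counts, no fold change was computed. A decrease or a small change could not have been seen at this depth, and no library rose above 3 counts. The oxidases HEPH and HEPHL1, which can stand in for ceruloplasmin beside the exporter, had 0 counts in all libraries, and HAMP, which encodes the hormone hepcidin that removes ferroportin from the membrane, had at most 1.

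For uptake, TFRC was lower both upon PT2385 treatment and in the KO. Control libraries had 849.8, 844 and 778 CPM, PT2385 libraries 646, 656 and 606 CPM, and KO libraries 649, 626 and 597 CPM. Every control library was above every PT2385 and KO library, and the latter groups overlapped. The decrease was 1.30-fold with PT2385 (log2 fold change -0.38 ± 0.06, edgeR adjusted p = 0.0016) and 1.31-fold in KO (log2 fold change -0.39 ± 0.06, edgeR adjusted p = 0.00059). Between KO and PT2385 the log2 fold change was -0.03, with a 95% interval of -0.17 to 0.11 (edgeR adjusted p = 0.80). TFRC was called against control with each replicate left out and under every other setting tried.

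TFRC is also a known HIF target, and the sequence ahead of it is shown for this reason. The stretch at chr3:196082154-196082340 (GRCh38.p14, minus strand), taken from the RefSeq promoter table up to the annotated edge of the gene, holds 1 copy of the HIF core letters ACGTG, in capitals, 88 bases before the RefSeq start.
TFRC upstream: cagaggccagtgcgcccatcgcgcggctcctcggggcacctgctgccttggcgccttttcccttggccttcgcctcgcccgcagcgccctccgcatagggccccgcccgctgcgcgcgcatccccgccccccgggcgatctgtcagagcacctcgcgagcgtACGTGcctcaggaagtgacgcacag

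The table holds 7 of the members, namely TFRC, SLC11A2, FTL, SLC40A1, ACO1, IREB2 and ERFE. In windows from 250 bases before to 50 bases after the start, ACGTG on either strand was present in TFRC and FTL among these 7, and in 21.4% of all 35116 promoters. With GCGTG searched as well, 5 of the 7 (TFRC, SLC11A2, FTL, ACO1 and IREB2) held either form in at least 1 of their windows. Of all promoter windows, counted singly, 48.4% did, and SLC11A2 and IREB2 have more than 1 window, so the shares are not alike. HIF2α binding was not measured, and a match of 5 letters is a description.

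SLC11A2, the divalent metal transporter of endosomes and of the gut brush border, had 58.8, 57.4 and 54.0 CPM in control, 58.2, 59.0 and 54.6 CPM in PT2385 and 61.6, 65.4 and 57.8 CPM in KO. All 3 groups overlapped. The log2 fold change was 0.01 with PT2385 (95% interval -0.15 to 0.16, edgeR adjusted p = 0.96) and 0.13 in KO (95% interval -0.03 to 0.29, edgeR adjusted p = 0.21). Thus for SLC11A2 no change was detected, and the intervals bound it well below the steps seen for CP. They do not exclude a small increase in KO, where the interval ends close to the 0.30 called for FTL with PT2385.

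In storage, both ferritin mRNAs were higher in the KO, and with PT2385 FTL passed the test and FTH1 did not. FTL, the light chain that promotes mineral formation in the ferritin core, had 357, 371 and 312 CPM in control, 453, 441 and 388 CPM in PT2385 and 496, 561 and 451 CPM in KO. Every control library was below every library of the other groups, and PT2385 and KO overlapped by a narrow margin. The increase was 1.46-fold in KO (log2 fold change 0.55 ± 0.09, edgeR adjusted p = 0.00076). With PT2385 it was 1.23-fold (log2 fold change 0.30 ± 0.08, edgeR adjusted p = 0.040), but this call rested on having all 6 libraries. It was kept only without PT2385 replicate 3 and lost when control replicate 1, 2 or 3, or PT2385 replicate 1 or 2, was left out (edgeR adjusted p = 0.10, 0.065, 0.14, 0.078 and 0.18).

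FTH1, the heavy chain with the ferroxidase centre, had 574, 581 and 481 CPM in control, 657, 635 and 586 CPM in PT2385 and 712, 775.5 and 606 CPM in KO. Again the control libraries were all below the others, with replicate 3 the lowest in each group. In KO the increase was 1.29-fold (log2 fold change 0.37 ± 0.10, edgeR adjusted p = 0.014), and it missed the threshold without control replicate 3 (adjusted p = 0.062). With PT2385 the log2 fold change was 0.19 ± 0.08 and was not called (edgeR adjusted p = 0.17). When the replicate number was kept as a block, it was 0.20 and was called (edgeR adjusted p = 0.0040). The labels do not give the numbers as pairs, and for number 2 the libraries were only weakly alike. With PT2385, 5 members were then called in place of 4, and 2305 of all genes tested in place of 1162.

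Neither ferritin chain was called between KO and PT2385. The log2 fold change was 0.15 for FTH1 (95% interval -0.05 to 0.35, edgeR adjusted p = 0.29) and 0.23 for FTL (95% interval 0.03 to 0.43, edgeR adjusted p = 0.11). Without KO replicate 3 both were called (edgeR adjusted p = 0.035 and 0.028). Many processed copies of the ferritin genes lie elsewhere in the genome. Their counts made up 0.646 to 1.37% of the sum for FTH1, over 25 pseudogenes, and at most 0.152% for FTL, over 16 pseudogenes. BEST1, which overlaps FTH1 on the opposite strand, had 7 to 19 counts per library.

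Within each library, TFRC had 0.886 to 0.981 counts per count of FTH1 and FTL together in control, 0.582 to 0.621 in PT2385 and 0.468 to 0.565 in KO. The 3 ranges did not overlap. With 3 libraries against 3, the exact two-sided permutation test of a single value cannot go below p = 0.1. The ratio of FTH1 to FTL counts went from 1.54 to 1.61 in control to 1.44 to 1.51 in PT2385 and 1.34 to 1.44 in KO, and no control library overlapped either group.

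**Figure D4:**
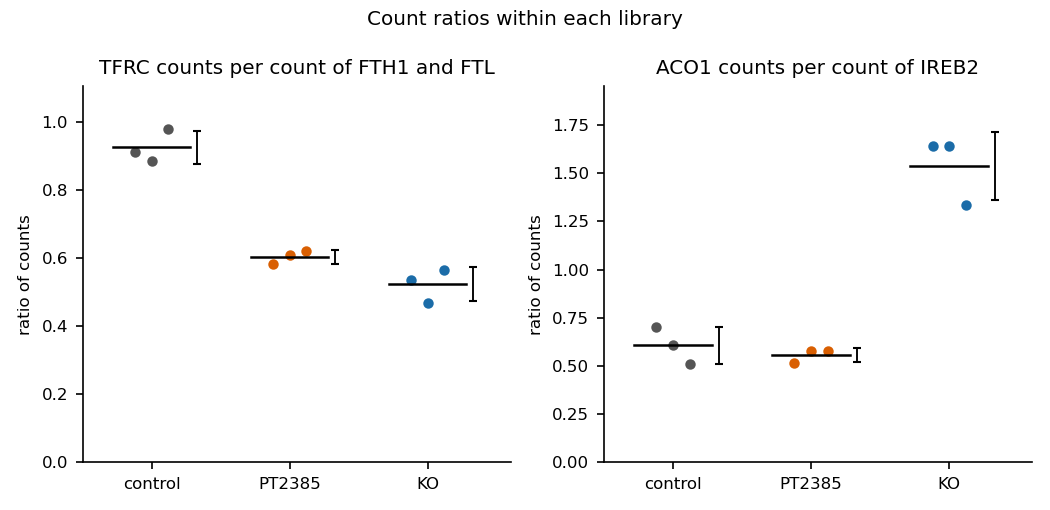
Count ratios within each library for TFRC against both ferritin chains (left) and ACO1 against IREB2 (right), with axes starting at 0. Points are libraries, lines are means and bars are ± SD. The TFRC to ferritin ratio was lower in both the PT2385 and the KO libraries, whereas the ACO1 to IREB2 ratio was higher in the KO libraries alone.

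The iron regulatory proteins changed in the KO and in opposite directions. ACO1 encodes IRP1, which is an aconitase while it holds an iron-sulfur cluster and binds IREs when it does not. It had 72.7, 63.2 and 56.0 CPM in control, 60.2, 66.1 and 59.8 CPM in PT2385 and 108.8, 117.5 and 86.5 CPM in KO. The KO libraries were all above the rest, and control and PT2385 overlapped. The increase was 1.64-fold in KO against control (log2 fold change 0.71 ± 0.12, edgeR adjusted p = 0.00093) and 1.68-fold against PT2385 (log2 fold change 0.75 ± 0.11, edgeR adjusted p = 0.00074). With PT2385 the log2 fold change was -0.05 (95% interval -0.25 to 0.15, edgeR adjusted p = 0.82).

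IREB2 encodes IRP2, which the ubiquitin ligase adaptor FBXL5 removes when iron is plentiful. It had 103.3, 104.0 and 109.9 CPM in control, 116.6, 114.8 and 103.2 CPM in PT2385 and 66.3, 71.7 and 64.8 CPM in KO. Here the KO libraries were all below the rest. The decrease was 1.55-fold against control (log2 fold change -0.63 ± 0.07, edgeR adjusted p = 3.1e-05) and 1.65-fold against PT2385 (log2 fold change -0.73 ± 0.08, edgeR adjusted p = 0.00012). With PT2385 the log2 fold change was 0.07 (95% interval -0.08 to 0.22, edgeR adjusted p = 0.61). The ratio of ACO1 to IREB2 counts was 0.510 to 0.704 in control and 0.516 to 0.580 in PT2385, and it rose to 1.34 to 1.64 in KO. All calls of ACO1 and IREB2 held with each replicate left out.

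HMOX1 encodes heme oxygenase 1, the inducible enzyme that frees iron from heme. It had 10.9, 11.4 and 6.99 CPM in control, 14.4, 11.7 and 10.4 CPM in PT2385 and 18.7, 18.1 and 11.2 CPM in KO. Replicate 3 was the lowest of each group, and KO replicate 3 lay within the control range. The log2 fold change in KO was 0.72 ± 0.22 (edgeR adjusted p = 0.028), a call that was lost without control replicate 3, KO replicate 1 or KO replicate 2 (edgeR adjusted p = 0.11, 0.10 and 0.073). With PT2385 it was 0.31 (95% interval -0.09 to 0.71, edgeR adjusted p = 0.38). Between KO and PT2385 the log2 fold change was 0.39 (95% interval -0.04 to 0.82, edgeR adjusted p = 0.21), and the groups overlapped. HMOX1 was thus not called between them in the main fit, though it was without KO replicate 3 (adjusted p = 0.016). The genes nearest to HMOX1 in pattern were ENSG00000227741, NBDY and CASTOR3P, with root mean square differences of 0.116, 0.129 and 0.148. NBDY and CASTOR3P had group means under 20 CPM. ENSG00000227741 was near the floor of detection, with group means of 0.25, 0.53 and 0.68 CPM in control, PT2385 and KO.

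ERFE encodes erythroferrone, known as a hormone of erythroid precursors that lowers hepcidin in the liver. It was the only member that moved with PT2385 and not in the KO, a difference that was tested directly. Control libraries had 7.05, 4.53 and 3.91 CPM, from 84, 55 and 47 counts. PT2385 libraries had 21.5, 13.0 and 14.2 CPM, from 268, 175 and 201 counts, whereas KO libraries had 4.40, 5.09 and 3.29 CPM, from 57, 73 and 48 counts. All PT2385 libraries were above all others, and control and KO overlapped. The increase with PT2385 was 3.12-fold (log2 fold change 1.64 ± 0.24, edgeR adjusted p = 0.00085), the 22nd largest of 15089 genes. KO against control gave -0.27 (95% interval -0.81 to 0.28, edgeR adjusted p = 0.46), and KO was 3.81-fold lower than PT2385 (log2 fold change -1.93 ± 0.23, edgeR adjusted p = 0.00020). Without any one replicate the PT2385 increase stayed between 1.39 and 1.93 on the log2 scale and was called.

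The erythroid markers HBB, HBA1 and ALAS2 were at 3 counts or fewer in all libraries, including those in which ERFE was high. In pattern over the 9 libraries, IQSEC3-AS1, ENSG00000256694 and MT1G lay nearest to ERFE, with root mean square differences of 0.307, 0.308 and 0.364. All were scarce, with group means of at most 2.12 CPM.

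Besides the members, 98 genes of iron and heme handling were listed in 6 groups, again with earlier results known, and 77 were tested. Of the 21 below the filter in every comparison, 16 had at most 3 counts in every library, among them TF, TFR2 and CYBRD1. Upon PT2385 treatment 3 of 77 were called, and in KO 31 were, 15 higher and 16 lower, one of which was EPAS1. KO against PT2385 gave 23, 7 higher and 16 lower. These counts stand against the 7.70%, 30.1% and 18.8% of all genes given above. With the replicate block, 8 were called with PT2385 in place of 3, and 2305 of the 15089 genes tested in place of 1162.

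The 3 called with PT2385 were SLC48A1, SLC39A14 and BACH1. SLC48A1, which carries heme out of endosomes and lysosomes, had 62, 72 and 54 counts in control, 118, 119 and 154 in PT2385 and 318, 395 and 349 in KO. Its 3 groups did not overlap and rose in steps, by 1.86-fold with PT2385 (log2 fold change 0.90 ± 0.16, edgeR adjusted p = 0.0036) and by 4.89-fold in KO (log2 fold change 2.29 ± 0.13, edgeR adjusted p = 3.1e-07). KO exceeded PT2385 by 1.38 ± 0.12 on the log2 scale (edgeR adjusted p = 2.2e-05). SLC39A14, a zinc transporter that also imports iron not bound to transferrin, was lower with PT2385 (log2 fold change -0.40 ± 0.06, edgeR adjusted p = 0.0017) and in KO (-0.59 ± 0.09, edgeR adjusted p = 0.00077). BACH1, a heme-sensing repressor of HMOX1, was lower with PT2385 (log2 fold change -0.30 ± 0.07, edgeR adjusted p = 0.027), but not when any control replicate or PT2385 replicate 2 was left out (edgeR adjusted p = 0.052 to 0.12). In KO BACH1 gave -0.11 and was not called (edgeR adjusted p = 0.25).

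Of all genes tested in KO, 30.1% were called, 14.7% higher and 15.4% lower. The heme group held 9 called genes of 19 tested in KO (47.4%), 6 higher and 3 lower. LRP1, the receptor for heme bound to hemopexin, was 2.01-fold higher (log2 fold change 1.01 ± 0.10, edgeR adjusted p = 3.2e-05), and FLVCR1, named as a heme exporter and now known to carry choline, was 1.93-fold lower (log2 fold change -0.95 ± 0.07, edgeR adjusted p = 3.3e-06). Both also differed between KO and PT2385 (log2 fold changes 0.77 and -0.76, edgeR adjusted p = 0.00023 and 0.00013). Of 8 uptake and reduction genes, 2 were higher and 3 lower. HFE, a partner of the transferrin receptors, was at 0.58 ± 0.17 and the lysosomal channel gene MCOLN1 at 0.48 ± 0.12 on the log2 scale (edgeR adjusted p = 0.021 and 0.012). The HFE call was lost without control replicate 2 or 3 or KO replicate 1 or 2, where edgeR adjusted p was 0.061 to 0.088, and that of MCOLN1 without control replicate 1 or 2.

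Of all genes tested, 15.4% were lower and 14.7% higher in KO. In the group of export and hepcidin signalling, 3 of 6 tested genes were lower in KO and none was higher. These were NEO1, a co-receptor of BMP signalling, at -0.98 ± 0.09 (edgeR adjusted p = 1.3e-05), the ligand gene BMP2 at -0.52 ± 0.12 (edgeR adjusted p = 0.0059) and the receptor gene BMPR1A at -0.24 ± 0.07 (edgeR adjusted p = 0.019). The last was not called without control replicate 1 or 3. In the storage group 1 gene was higher and 1 lower of 6 (33.3% called, near the 30.1% of all genes). HERC2, which marks the ferritin receptor NCOA4 for degradation, was at -0.58 ± 0.06 (edgeR adjusted p = 3.4e-05), and TAX1BP1, an autophagy receptor of ferritin, was at 0.50 ± 0.07 (edgeR adjusted p = 0.00019).

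Among IRP regulators and other transcripts listed as holding an IRE, 3 of 7 (42.9%) were called in KO, where 30.1% of all genes were. Besides EPAS1, the called genes of this group were FBXL5, at 0.31 ± 0.07 (edgeR adjusted p = 0.0049), and CDC42BPA, at -0.42 ± 0.06 (edgeR adjusted p = 0.00036). The sites found in the untranslated regions of CDC42BPA had at most 2 of the 5 pairs. Of 31 mitochondrial iron and iron-sulfur cluster genes, 5 were higher and 4 lower. FDXR, the reductase that feeds electrons to cluster assembly, was at 0.61 ± 0.14 (edgeR adjusted p = 0.0061). CIAO2A and NUBP2, which act in cytosolic cluster assembly, were at -0.51 ± 0.10 and -0.43 ± 0.08 (edgeR adjusted p = 0.0032 and 0.0017).

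**Figure D5:**
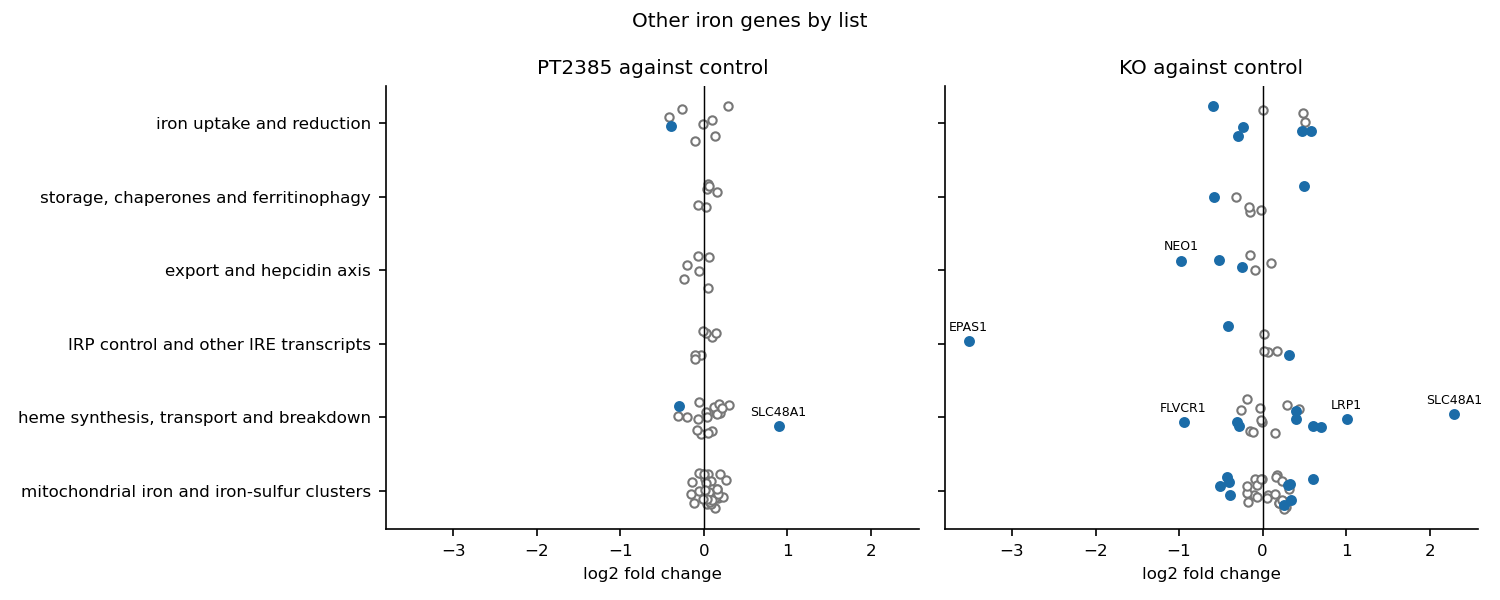
Log2 fold changes (horizontal axis) of the 77 other iron and heme genes tested, by list, with PT2385 (left) and in KO (right). Each point is a gene, filled where the adjusted p was under 0.05, and the vertical scatter within a list has no meaning. With PT2385 3 points are filled and in KO 31, the farthest to the right being SLC48A1 at 0.90 and 2.29.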

How the data were processed

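RNA-seq was done on 9 libraries of 786-0 cells, in 3 groups of 3. The authors trimmed reads with cutadapt, aligned them to GRCh38 (hg38) with STAR, counted them on genes with featureCounts and deposited raw counts. Versions, annotation release and strandedness are not given in the sources used here. Identifiers were matched to GENCODE release 44 (58207 of 58735). 0 columns were left unmapped. Counts of 3 or fewer were taken as the floor of detection. Libraries held 11881000 to 14730081 counts, and errors are the SD between replicates or the model's standard error.

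Each pair of groups was compared with edgeR 4.0.16 (R 4.3.3) by TMM scaling, filterByExpr with a minimum of 10 counts, its quasi-likelihood test, with p-values adjusted by Benjamini-Hochberg over all genes tested. The steps were run on simulated data with known changes, larger than those of most members. In the order of the comparisons with PT2385, in KO and of KO against PT2385, 92.4%, 91.4% and 89.4% were recovered. Of the calls, 5.67%, 7.69% and 5.85% were false. DESeq2 1.42.0, other scalings, filters and models, and leaving out each replicate were alternatives.

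The members and lists were chosen with earlier results of these data known. Named besides members were overlapping genes, EPAS1, ferritin pseudogenes, per list the 3 largest called changes with a mean of at least 50 counts, and the 3 genes nearest in pattern to the 3 members that changed most against control. Other genes, named for their counts near the floor or as markers, were chosen after their values were seen. A listed marker gene is not reported here.

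The replicate numbers come from the labels. The labels do not say that equal numbers mark pairs. Over 11487 genes, deviations from the group means correlated between same-numbered PT2385 and control libraries at 0.413, 0.106 and 0.394. For number 2 this was little above the 0.0795 between control replicate 1 and PT2385 replicate 2. These numbers were used as pairs only in the fits with the replicate block, and the main fits had no term for replicate. The correlations were similar for KO and control, at 0.288, 0.0376 and 0.427, and for KO and PT2385, at 0.316, 0.0675 and 0.381. KO replicate 2 correlated more with control replicate 1 (0.254) and PT2385 replicate 1 (0.155) than with its same-numbered libraries. For these comparisons too the block was run only as an alternative.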

Additional observations from a re-analysis of the deposited data

How the results depend on the processing

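No scaling, filter, model or tool changed the direction of a called member, and TFRC, CP, ACO1, IREB2 and ERFE kept each of their calls under all alternatives run. The calls of FTL with PT2385 and of FTH1 and HMOX1 in KO were each lost when single libraries were left out, as given beside them, whereas that of FTL in KO was kept. For FTL with PT2385, the call was also lost with all 9 libraries in 1 model (edgeR adjusted p = 0.067), and for FTH1 it was gained with no filter (0.033) and without PT2385 replicate 3 (0.042). Between KO and PT2385, FTL was called with no filter (0.025). With the replicate block, 2305 genes (1030 higher, 1275 lower) were called with PT2385 in place of 1162, and 8 other iron genes. With no filter 6 other iron genes were, and 1701 genes in all. For KO against control the block gave 5501 genes, 7 members and 36 other iron genes. For KO against PT2385 it gave 3783, 6 and 27, with FTL and HMOX1 added (0.013 and 0.0497). It changed no other call of a member. Leaving out 1 replicate gave 574 to 1451 genes with PT2385, the lowest without PT2385 replicate 2 and control replicate 2 (581). For KO against PT2385 it gave 1836 to 3190 genes, 4 to 7 members (7 without KO replicate 3) and 11 to 23 other iron genes, the lowest without PT2385 replicate 2 and next KO replicate 1 (15). The cause was not tested beyond the smaller number of samples. Signs turned only for changes that were not called, and leaving out 1 replicate gave these ranges on the log2 scale. With PT2385 they were -0.024 to 0.050 for SLC11A2 (below 0 without control replicate 3 or PT2385 replicate 1 or 2), -0.13 to 0.051 for ACO1 (above 0 without control replicate 1), -0.013 to 0.14 for TAX1BP1 and -0.0021 to 0.10 for BMP2 (both below 0 without PT2385 replicate 1), and -0.060 to 0.11 for NUBP2 (below 0 without control replicate 1 or PT2385 replicate 2). In KO they were -0.43 to 0.023 for ERFE (above 0 without control replicate 1), and in KO against PT2385 -0.060 to 0.0014 for TFRC (above 0 without PT2385 replicate 2). Genes at or under 3 counts, SLC40A1 among them, lie at the floor of these libraries, where a decrease or a small change could not be seen.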
